A study of Mus musculus with 8 samples.

Results

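The vomeronasal type 2 receptor genes (Vmn2r) are 125 of the 22367 protein-coding genes on 21 chromosomes of the mm9 annotation, chosen by a symbol that starts with Vmn2r. LaminB1-DamID was carried out in 3T3-L1, an established mouse fibroblast line that becomes adipocytes in culture. A bacterial adenine methylase (Dam) fused to laminB1, a protein of the nuclear envelope (NE), methylates GATC in DNA near the NE, while free Dam is the control for accessibility. Stretches where the fusion exceeded free Dam were called lamina associated domains (LADs). The preadipocytes were cells at day 0, before induction, labelled untreated. The adipocytes were at day 9 after induction with insulin, dexamethasone, IBMX and rosiglitazone and carried a control non-target shRNA. The other adipocytes, also at day 9, carried Tmem120a shRNA or Tmem120a/b shRNA, against Tmem120a or against both Tmem120a and its paralog Tmem120b. All cells received lentivirus with Dam or LaminB1-Dam, at day 6 in the adipocytes, so the 8 libraries gave 1 LaminB1-Dam and 1 Dam library in each of 4 conditions and 1 LAD list for each condition. No condition has a replicate, the lists hold positions with no score, and read depth is unknown, so no spread, interval or test accompanies the values. Positions also allow no check of the cell type by its markers or of the knockdown. Differences between lists are differences between these lists only.

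Vmn2r proteins are class C G protein-coupled receptors, with the large extracellular N-terminal domain that this class shares with the calcium-sensing and metabotropic glutamate receptors. They are the receptors of sensory neurons in the basal layer of the vomeronasal organ, where they detect peptide and protein pheromones and signal through the G protein subunit Gnao1 and the channel Trpc2. Most of these neurons express 1 receptor gene of the variable families together with a gene of the small broadly expressed family C, Vmn2r1 to Vmn2r7. They have no established function in fat cells, and only the position of their genes was measured here.

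The genes lay in 19 clusters on 9 chromosomes, when neighbours within 1 Mb were joined. Chromosome 7 held 51 genes in 6 clusters and chromosome 17 held 32 in 4 clusters. Chromosome 5 held 11 genes, chromosome 6 held 9, chromosome 10 held 8, chromosome 3 held the 7 family C genes, chromosome 13 held 4, chromosome 14 held 2 and the X chromosome held 1. Of the clusters, 14 had at least 2 genes and 5 were a single gene, namely Vmn2r18, Vmn2r28, Vmn2r118, Vmn2r120 and Vmn2r121. Gene length ran from 2.76 kb at Vmn2r-ps100 to 154 kb at Vmn2r7 with a median of 22.4 kb. The longest coding transcript had 6 exons in 106 of the genes. Its coding sequence was 663 to 2739 bp long, with a median of 2559 bp. Of the genes, 6 have symbols that start with Vmn2r-ps, and Vmn2r68-ps and Vmn2r72-ps also bear a pseudogene suffix, although the annotation types all of them as protein-coding.

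In the lists, 25 LAD borders fell inside 13 of these genes, and each of the 25 lay at a GATC. The reference sequence (mm9, plus strand, 5′ to 3′) is given around 7 of them, those that entered a coding exon and those in Vmn2r13 and Vmn2r90, the genes that differed most by position between preadipocytes and adipocytes without leaving LADs entirely. Each run has 44 bases and begins 20 bases before the border, GATC is in capitals from base 18, and the border falls between its T and its C.
Vmn2r13, preadipocytes, chr5:109600317-109600360: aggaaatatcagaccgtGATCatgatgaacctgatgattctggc
Vmn2r90, adipocytes, chr17:17860880-17860923: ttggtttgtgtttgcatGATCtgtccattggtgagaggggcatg
Vmn2r90, Tmem120a shRNA, chr17:17859752-17859795: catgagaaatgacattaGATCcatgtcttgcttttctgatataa
Vmn2r90, Tmem120a/b shRNA cells, chr17:17866058-17866101: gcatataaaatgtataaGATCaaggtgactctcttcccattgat
Vmn2r1, Tmem120a/b shRNA cells, chr3:63890412-63890455: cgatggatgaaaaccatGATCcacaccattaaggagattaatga
Vmn2r89, Tmem120a shRNA cells, chr14:52075575-52075618: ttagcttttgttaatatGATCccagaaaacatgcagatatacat
Vmn2r53, Tmem120a shRNA cells, chr7:13167699-13167742: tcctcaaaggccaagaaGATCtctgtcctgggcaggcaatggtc
Of the 25 borders, 18 lay in introns, 3 in coding exons (exon 2 of Vmn2r1, exon 3 of Vmn2r89 and exon 5 of Vmn2r53) and 4 in the annotated body of Vmn2r7 outside its longest coding transcript. No border inside a gene was shared by 2 lists. The preadipocyte and adipocyte lists gave 2 borders each, the Tmem120a shRNA list 8 and the Tmem120a/b shRNA list 13.

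Nearly all Vmn2r genes were in LADs in every condition. A LAD was met by 124 of the 125 genes in preadipocytes, 125 in adipocytes, 124 in Tmem120a shRNA cells and 124 in Tmem120a/b shRNA cells. Of all protein-coding genes, 26.2%, 23.3%, 27.5% and 29.5% met a LAD in these lists. The whole gene body lay in LADs for 122 genes in preadipocytes, 123 in adipocytes, 118 in Tmem120a shRNA cells and 116 in Tmem120a/b shRNA cells, against 20.0%, 19.3%, 18.9% and 19.5% of all protein-coding genes. In all 4 lists 122 genes, or 97.6%, met a LAD, compared with 19.3% of all genes. In all 4 lists 109 genes, or 87.2%, lay wholly in LADs, compared with 14.3% of all genes. Of the summed gene length, 99.0% was in LADs in preadipocytes, 99.6% in adipocytes, 97.7% in Tmem120a shRNA cells and 95.4% in Tmem120a/b shRNA cells, where all protein-coding genes had 29.6%, 28.9%, 30.1% and 31.1%. The share was thus lowest in Tmem120a/b shRNA cells for the Vmn2r genes and highest there for all genes.

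Other families of chemosensory receptors were read the same way. The Vmn1r genes, which encode the receptors of the apical vomeronasal neurons, met a LAD in all 4 lists in 174 of 203 cases (85.7%), and the odorant receptor genes Olfr in 938 of 1113 (84.3%). Their gene bodies are short, with medians of 0.930 kb and 0.960 kb, while that of Vmn2r genes was 22.4 kb. Even so, the share of genes lying wholly in LADs in all 4 lists was 87.2% for Vmn2r, 83.7% for Vmn1r and 82.9% for Olfr. The 4 Fpr-rs genes, vomeronasal receptors of the formyl peptide family, lay wholly in LADs in all 4 lists. They are not a separate case, since Fpr-rs4, Fpr-rs6 and Fpr-rs7 lie within the cluster from Vmn2r90 to Vmn2r110. Fpr-rs3 lies 27.6 kb after that cluster. The 15 Taar genes, for trace amines, did not follow this pattern, since none met a LAD in adipocytes and 13 did in Tmem120a/b shRNA cells.

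**Figure D1:**
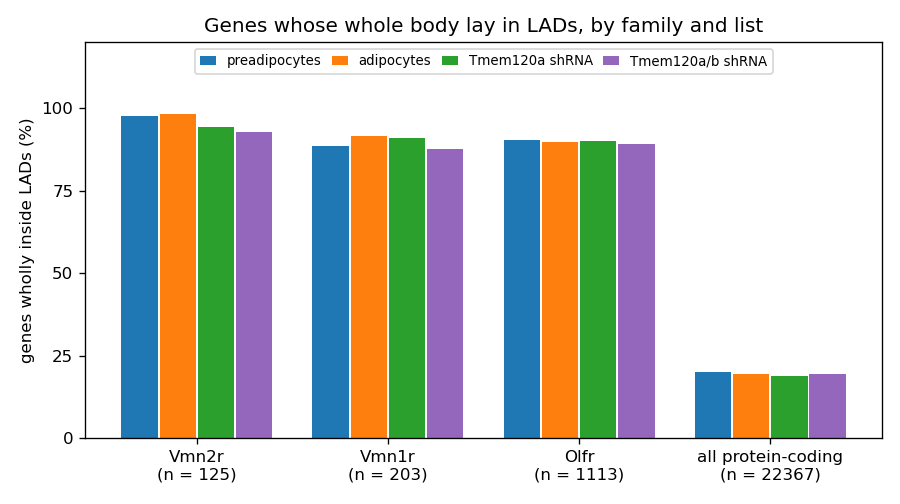
Share of genes (%, linear axis from 0) whose whole body lay in LADs, for Vmn2r, Vmn1r, Olfr and all protein-coding genes, with 1 bar for each LAD list. The Vmn2r bars stand between 92.8% and 98.4%, and those of all genes between 18.9% and 20.0%.

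The genes that work with the receptors were in LADs in some groups and outside them in others. Of 7 genes of vomeronasal signal transduction, Ano2, a calcium-activated chloride channel, had 67.5%, 64.4%, 100% and 72.1% of its body in LADs in preadipocytes, adipocytes, Tmem120a shRNA cells and Tmem120a/b shRNA cells. Gnao1, Gnai2, Gng8, Trpc2, Omp and Ano1 had 0% in every list. The transcription factor genes Bcl11b and Meis2, active in vomeronasal neurons, also had 0% in each list. This is the common state, since 14251 of all 22367 protein-coding genes met no LAD in any list. The major urinary protein genes (Mup), whose products are ligands of Vmn2r receptors, met a LAD in all lists in 21 of 21 cases. Of the 9 H2-M genes, class I molecules of which several are expressed with Vmn2r receptors in the basal neurons, 5 met a LAD in all 4 lists. Of all protein-coding genes, 19.3% met a LAD in all 4 lists. Of the 15 other class C receptor genes, 6 met a LAD in all 4 lists. Among them Gprc6a, Grm3, Grm5, Grm7 and Grm8 lay wholly in LADs in each list, and the taste receptor genes Tas1r1, Tas1r2 and Tas1r3 had 0% in each.

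The LADs that held Vmn2r genes were long. In preadipocytes 28 LADs held the genes and had a median length of 524 kb, against a median of 83.2 kb for the whole list. In adipocytes 24 LADs held them with a median of 823 kb (list median 103 kb). In Tmem120a shRNA cells there were 29 with a median of 392 kb (59.1 kb), and in Tmem120a/b shRNA cells 40 with a median of 370 kb (60.7 kb). A long LAD has more room for genes, so this is a description and not a property of the family. The genes lay deep within them, since the median distance from a wholly enclosed gene to the nearer border of its LAD was 210 kb (preadipocytes), 246 kb (adipocytes), 202 kb (Tmem120a shRNA) and 140 kb (Tmem120a/b shRNA). Vmn2r99 on chromosome 17 was the deepest in preadipocytes and in adipocytes, at 1460 kb in both lists.

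The largest cluster, of 22 genes from Vmn2r90 to Vmn2r110 over 2.89 Mb of chromosome 17, had its other 21 genes in a single LAD that measured 3030 kb in preadipocytes, 3040 kb after differentiation and 2930 kb in Tmem120a shRNA cells. In Tmem120a/b shRNA cells the longest LAD there was 1480 kb and held 11 genes, from Vmn2r97 to Vmn2r107. A gap of 4.84 kb within Vmn2r107 accounted for 1 of the splits. The cluster of 15 genes from Vmn2r65 to Vmn2r79, over 2.10 Mb of chromosome 7, lay whole in 1 LAD of 2400 kb in preadipocytes, 3470 kb after differentiation and 2540 kb in Tmem120a shRNA cells. In Tmem120a/b shRNA cells it met 5 LADs, and the 4 gaps between them came to 71.6 kb. On chromosome 6 the 9 genes from Vmn2r19 to Vmn2r27 were in 1 LAD of 1470 kb in the first 3 lists, and in 2 LADs in Tmem120a/b shRNA cells with a gap of 58.6 kb that met no Vmn2r gene. Vmn2r26, the receptor known to respond to peptides that bind class I molecules, lay wholly in LADs in all 4 lists and 310 kb, 305 kb, 295 kb and 19.7 kb from the nearer border. Vmn2r116, the receptor of the male pheromone ESP1, was also whole in all lists, at 124 kb, 131 kb, 125 kb and 139 kb. In adipocytes 15 of the 19 clusters lay in 1 LAD with no gap, and 4 clusters were wholly in LADs in all 4 lists. These were Vmn2r-ps100 to Vmn2r-ps106 on chromosome 13 and the single genes Vmn2r18, Vmn2r120 and Vmn2r121. Over the genome, the lists held 3914 LADs in preadipocytes, 2542 in adipocytes, 5723 in Tmem120a shRNA cells and 6971 in Tmem120a/b shRNA cells. The clusters met 32, 28, 33 and 47 LADs in the same order. With gaps under 50 kb closed they met 23, 23, 23 and 25.

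The other clusters were mostly enclosed too. Their share of the span in LADs is given in the order preadipocytes, adipocytes, Tmem120a shRNA cells and Tmem120a/b shRNA cells. The cluster from Vmn2r8 to Vmn2r17 on chromosome 5 (10 genes, 0.656 Mb) had 91.2%, 98.2%, 94.9% and 93.0%. On chromosome 7, the cluster from Vmn2r29 to Vmn2r36 (8 genes, 0.671 Mb) had 97.9%, 100%, 97.0% and 96.0%, and all 8 genes were whole in every list. Its gaps met Clcn4-2, a chloride channel gene, in preadipocytes and in both shRNA lists. The cluster from Vmn2r37 to Vmn2r52 (16 genes, 1.81 Mb) had 93.9%, 92.4%, 93.8% and 90.6%, or 99.4%, 97.8%, 99.3% and 95.9% with the runs of N left out. The cluster from Vmn2r57 to Vmn2r63 (7 genes, 1.53 Mb) had 88.6%, 93.3%, 90.8% and 81.0%, with 5, 3, 4 and 9 gaps. These gaps met Zfp788 in the first 3 lists and Zfp141 in preadipocytes and Tmem120a/b shRNA cells, beside other genes. On chromosome 10 the genes from Vmn2r80 to Vmn2r83 and from Vmn2r84 to Vmn2r87 were in 1 LAD for each cluster in the first 3 lists, and in 2 LADs each in Tmem120a/b shRNA cells, with gaps of 9.72 kb and 14.2 kb. Neither gap met a Vmn2r gene, so all 8 genes were whole in every list. The cluster from Vmn2r111 to Vmn2r117 on chromosome 17 (8 genes, 0.932 Mb) had 94.3%, 100%, 97.5% and 94.1%, and its 8 genes were also whole in every list. The pair Vmn2r88 and Vmn2r89 on chromosome 14 had 100%, 100%, 82.8% and 100%.

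A LAD border inside a Vmn2r gene was uncommon. Of the genes that met a LAD, a border lay inside 2 in preadipocytes (1.61%), 2 in adipocytes (1.60%), 6 in Tmem120a shRNA cells (4.84%) and 8 in Tmem120a/b shRNA cells (6.45%). With gaps under 50 kb between LADs closed, the count was 1 in each of the 4 lists. Of all protein-coding genes that met a LAD, 23.5%, 16.9%, 31.0% and 34.1% had a border inside in the same lists. Both series of shares were highest in Tmem120a/b shRNA cells. Of the 123 Vmn2r genes whole in adipocytes, 2 were not whole in preadipocytes (1.63%, all genes 11.3%), 6 not in Tmem120a shRNA cells (4.88%, all genes 14.9%) and 7 not in Tmem120a/b shRNA cells (5.69%, all genes 17.0%). These 3 comparisons share the adipocyte list.

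In total 16 Vmn2r genes were not wholly in LADs in at least 1 list, and 13 of them in exactly 1 list. The exceptions were Vmn2r7, Vmn2r57 and Vmn2r90. Of the 16, 12 departed in an shRNA list only, and Vmn2r7 and Vmn2r90 were the 2 genes not whole in both shRNA lists. The same count over all protein-coding genes is not given here. The shRNA lists held more LADs (5723 and 6971) than the preadipocyte (3914) and adipocyte (2542) lists. Borders inside genes that met a LAD were also more common there over all protein-coding genes. A state that differed outright, with a LAD met in some lists and none in another, was found for 3 genes (2.40%), compared with 16.9% of all protein-coding genes. These 3 genes are Vmn2r28, Vmn2r52 and Vmn2r63, all on chromosome 7. Vmn2r52 and Vmn2r63 lay in gaps under 50 kb, and with such gaps closed 124 genes had the same state in all 4 lists and Vmn2r28 alone did not.

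**Figure D2:**
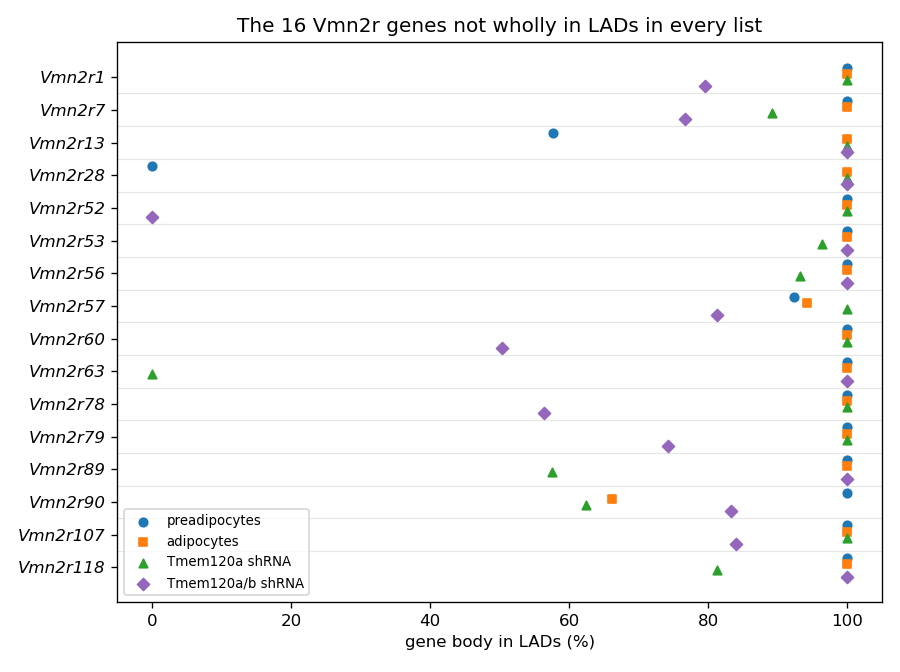
Share of the gene body in LADs (%) for the 16 Vmn2r genes that were not whole in at least 1 of the 4 lists, 1 row for each gene and 1 marker for each list. Vmn2r28, Vmn2r52 and Vmn2r63 each have a single marker at 0 and the others at 100, while most of the other genes have 1 marker between 50.3% and 96.4%.

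Vmn2r28 (chr7:5432243-5445453, 13.2 kb, 6 exons) had 0% of its body in LADs in preadipocytes and 100% in adipocytes, in Tmem120a shRNA cells and in Tmem120a/b shRNA cells. In preadipocytes it lay in a gap of 59.2 kb between LADs that held no other protein-coding gene. Its neighbours Vmn1r59, 25.8 kb before it, and Vmn1r60, 50.3 kb after it, were wholly in LADs in all 4 lists, so the gap was limited to the stretch between them. The LAD that held the gene was 982 kb long in adipocytes, 188 kb in Tmem120a shRNA cells and 138 kb in Tmem120a/b shRNA cells. Vmn2r52 (chr7:10744001-10761635, 17.6 kb) is the last gene of the cluster that starts at Vmn2r37. It had 100% in preadipocytes, adipocytes and Tmem120a shRNA cells and 0% in Tmem120a/b shRNA cells, where a gap of 47.1 kb ended 0.454 kb beyond its start site. Vmn2r63 (chr7:50158621-50189159, 30.5 kb), the last gene of the cluster that starts at Vmn2r57, had 100% in preadipocytes, adipocytes and Tmem120a/b shRNA cells. It had 0% in Tmem120a shRNA cells, in a gap of 43.3 kb. None of the 3 gaps held another protein-coding gene.

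The promoters of these 3 genes are given because they lay outside LADs in the same list as the gene bodies. Each runs from 250 bases before to 50 bases after the start (RefSeq, GRCm38.p6, minus strand, 5′ to 3′), with GATC in capitals where it occurs.
Vmn2r28, chr7:5493802-5494101: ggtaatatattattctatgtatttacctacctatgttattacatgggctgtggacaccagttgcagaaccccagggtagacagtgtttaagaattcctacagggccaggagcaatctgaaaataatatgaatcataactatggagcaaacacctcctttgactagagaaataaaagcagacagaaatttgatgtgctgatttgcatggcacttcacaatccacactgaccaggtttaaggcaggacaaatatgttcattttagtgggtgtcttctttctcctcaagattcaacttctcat
Vmn2r52, chr7:10176237-10176536: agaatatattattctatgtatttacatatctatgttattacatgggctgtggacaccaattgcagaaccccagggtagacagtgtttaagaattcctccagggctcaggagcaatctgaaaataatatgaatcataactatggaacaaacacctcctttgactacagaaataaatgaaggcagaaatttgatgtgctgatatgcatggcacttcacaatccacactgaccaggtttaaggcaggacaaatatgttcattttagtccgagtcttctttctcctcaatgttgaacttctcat
Vmn2r63, chr7:42933740-42934039: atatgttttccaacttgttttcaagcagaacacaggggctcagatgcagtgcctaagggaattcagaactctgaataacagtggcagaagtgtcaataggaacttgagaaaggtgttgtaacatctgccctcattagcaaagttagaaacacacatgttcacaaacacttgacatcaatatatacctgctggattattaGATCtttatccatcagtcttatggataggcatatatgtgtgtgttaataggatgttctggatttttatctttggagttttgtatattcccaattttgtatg
Each matched the mm9 sequence of chromosome 7 once, at chr7:5445404-5445703, chr7:10761586-10761885 and chr7:50189110-50189409, and each of these windows had 0% in LADs in the list where its gene had 0% and 100% in the other 3. The promoters of Vmn2r28 and Vmn2r52 were 93.7% identical over 301 aligned columns, and no other of the 110 promoters compared with either reached 90%. Vmn2r28 lay outside LADs in preadipocytes and Vmn2r52 in Tmem120a/b shRNA cells. Whether promoter sequence bears on the LAD state was not tested. The promoter of Vmn2r63 was 53.3% identical to both. Over the family, 111 of the 125 genes had a RefSeq promoter and there were 112 promoters. GATC, searched as written (it reads the same on both strands), occurred in 68 of them, or 60.7%, and in 48.0% of all 32851 promoters of that length.

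The change between preadipocytes and adipocytes touched few Vmn2r genes. The deposited differential regions (DRs) in LADs of preadipocytes alone are called released here and those in LADs of adipocytes alone recruited. A released region met 0 Vmn2r genes, compared with 5.76% of all protein-coding genes. A recruited region met 2 (1.60%), compared with 3.08% of all genes. Recruited regions lie outside the LADs of preadipocytes, where 122 of the 125 Vmn2r genes and 20.0% of all genes were whole in LADs. Few Vmn2r genes could therefore meet one, and the 2 shares do not compare like with like. The 2 genes were Vmn2r28, wholly inside a region of 59.2 kb, and Vmn2r13, with 15.2 kb in a region of 18.6 kb. The region at Vmn2r28 had 100% of its length in LADs in Tmem120a shRNA cells and 91.7% in Tmem120a/b shRNA cells. The region at Vmn2r13 had 93.8% and 100%, so both were for the most part in LADs in both shRNA lists. Vmn2r13 (chr5:109585087-109621126, 36.0 kb) had 57.7% of its body in LADs in preadipocytes and 100% in the other lists. Its preadipocyte border lay in intron 4 and left 2 of its 6 exons outside LADs, but its start site inside.

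Within the spans of the clusters the deposited lists had 1 released region, of 11 kb, and 6 recruited regions that together covered 125 kb, out of 2021 released and 1808 recruited regions in all. The released region met no Vmn2r gene and lay in the cluster from Vmn2r37 to Vmn2r52. At Vmn2r genes, taking one LAD list from the other directly also gave a piece of 10.5 kb in LADs of preadipocytes alone, at Vmn2r90. It also gave a piece of 0.943 kb in LADs of adipocytes alone, at Vmn2r57. Neither piece is among the deposited regions, and pieces that met no Vmn2r gene are not given here. The shortest deposited region was 8.04 kb, and the rule that left out the piece at Vmn2r90 is not given in the sources used here.

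Vmn2r90 and Vmn2r57, each the first gene of its cluster, had a border inside in 3 of the 4 lists. Vmn2r90 (chr17:17840905-17871131, 30.2 kb) had 100% of its body in LADs in preadipocytes, 66.1% in adipocytes, 62.4% in Tmem120a shRNA cells and 83.3% in Tmem120a/b shRNA cells. Its LAD was short in every list, at 51.6 kb, 47.4 kb, 31.8 kb and 37.2 kb, and in preadipocytes it ended 0.230 kb past the gene. The start site was inside in all 4 lists. The border lay in intron 3 in adipocytes and in Tmem120a shRNA cells, in intron 5 in Tmem120a/b shRNA cells, and left 3, 3 and 1 of the 6 exons outside or cut. Beyond it, a stretch of 152 kb with Ncrna00085, the hyaluronan synthase gene Has1 and the formyl peptide receptor gene Fpr1 was outside LADs in all 4 lists. On the other side Lnpep, 79.5 kb before Vmn2r90, had 0% in all 4 lists. Vmn2r57 (chr7:48655102-48704011, 48.9 kb) had 92.3%, 94.2%, 100% and 81.3% in the same order. Preadipocytes and adipocytes lacked its last 3.78 kb and 2.84 kb, and Tmem120a/b shRNA cells lacked 9.16 kb inside it. AI987944, 6.47 kb away, had 0%, 11.2%, 100% and 100%, and Gm20449 overlaps Vmn2r57.

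**Figure D3:**
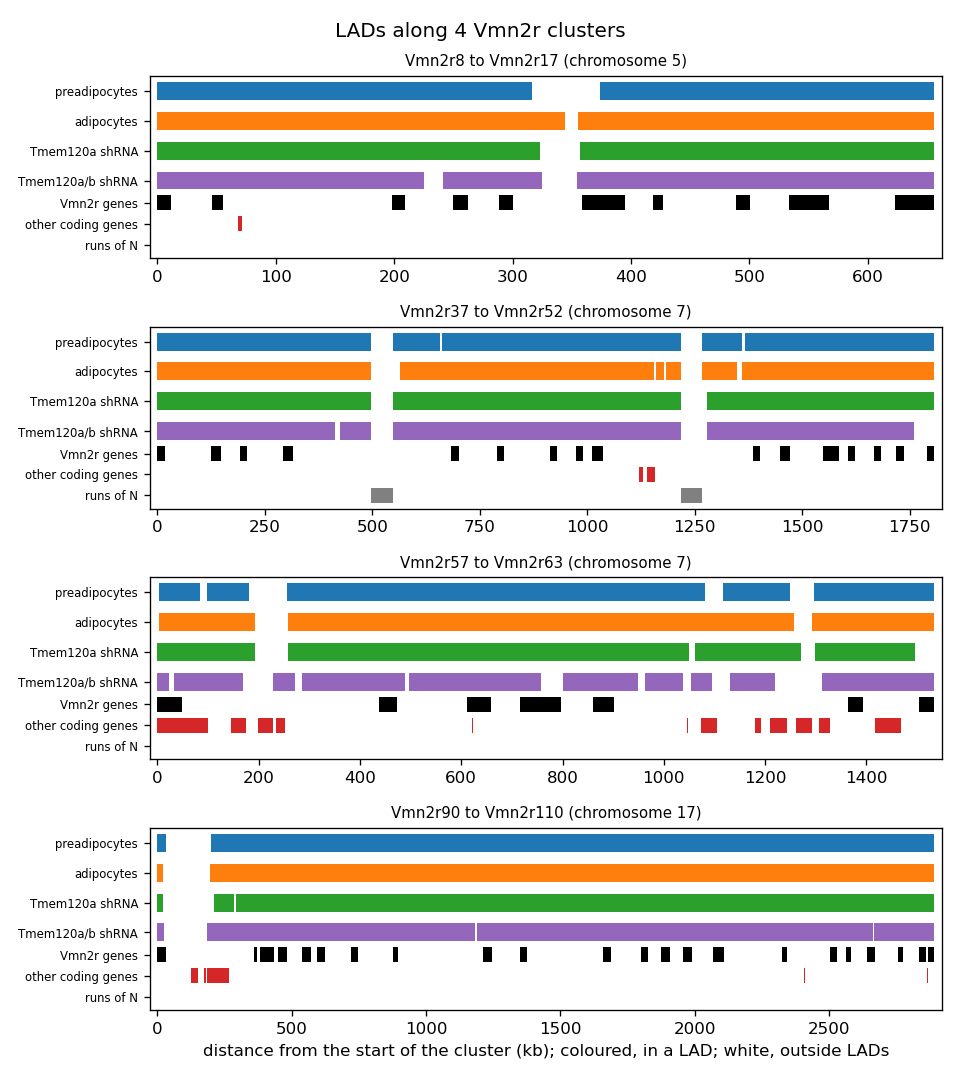
LADs (coloured) and stretches outside LADs (white) along 4 Vmn2r clusters in the 4 lists, by distance from the start of the cluster in kb, above the Vmn2r genes, other protein-coding genes and runs of N in the reference. The gap of 152 kb after Vmn2r90 and both gaps at runs of N recur in all lists, while the gap of 45.1 kb at Vmn2r60 is in the Tmem120a/b shRNA list alone.

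The family C genes on chromosome 3 lay in 1 LAD of 811 kb in preadipocytes and 1 of 916 kb in adipocytes, and all 7 were whole in both. In the preadipocyte list that LAD ended 0.0330 kb past Vmn2r7, and in the adipocyte list 109 kb past it. In Tmem120a shRNA cells Vmn2r7 had 89.2% in LADs, with 16.6 kb outside, and the other 6 genes were whole. In Tmem120a/b shRNA cells Vmn2r7 had 76.7%, with 35.9 kb outside, and Vmn2r1 had 79.6%. The stretches of Vmn2r7 outside LADs in the shRNA lists overlapped by 2.25 kb and held none of the 6 exons of its longest coding transcript. In Vmn2r1 the part outside was the first 4.87 kb, with the start site and 2 of the 6 exons outside or cut. Vmn2r2, Vmn2r3, Vmn2r4, Vmn2r5 and Vmn2r6 were whole in all 4 lists. Kcnab1, a potassium channel subunit gene 265 kb after the cluster, had 0%, 0%, 11.6% and 0% of its body in LADs.

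The remaining partial genes departed in 1 shRNA list each. In Tmem120a shRNA cells Vmn2r89 (9.33 kb, chromosome 14) had 57.6% in LADs, with its start site and 3 of its 5 exons outside or cut. Vmn2r118 had 81.2%, Vmn2r56 had 93.2% with its start site outside, and Vmn2r53 had 96.4%. In Tmem120a/b shRNA cells Vmn2r60 (79.3 kb, chromosome 7) had 50.3%, Vmn2r78 had 56.4%, Vmn2r79 had 74.2% and Vmn2r107 had 84.0%. The start sites of these 4 were inside LADs, and in Vmn2r78, Vmn2r79 and Vmn2r107 the part outside fell within intron 5. Over the 16 genes, the start site was outside LADs in 1 list for Vmn2r1, Vmn2r28, Vmn2r52, Vmn2r56, Vmn2r63 and Vmn2r89, and in no list for the others.

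The spans of the clusters came to 13.8 Mb, of which 95.7% was in LADs in preadipocytes, 96.9% in adipocytes, 95.8% in Tmem120a shRNA cells and 93.1% in Tmem120a/b shRNA cells. Other protein-coding gene bodies within the spans, 0.678 Mb, had 72%, 81.6%, 78.2% and 72.7%, below the Vmn2r bodies in every list. The remaining 9.89 Mb between genes had 97.3%, 98.1%, 97.4% and 94.7%. Gaps in the spans numbered 16, 10, 17 and 30 and came to 591 kb, 427 kb, 581 kb and 952 kb. Those that met a Vmn2r gene were 3, 2, 7 and 9 of them. Stretches outside LADs in all 4 lists numbered 6 and covered 320 kb, and 0 of them met a Vmn2r gene. Of these, 3 met other genes, at 2610021A01Rik and Gm5595 in the cluster from Vmn2r57 to Vmn2r63 and at the stretch after Vmn2r90. Another 2 were runs of N of 50 kb in the reference within the cluster from Vmn2r37 to Vmn2r52, where no read can map, and the last was 10.9 kb on chromosome 5 with no gene.

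Of 37 protein-coding genes of other families next to the clusters, 18 were wholly in LADs in all 4 lists, 4 had 0% in all 4 and 15 had other patterns. Besides Lnpep, D730045B01Rik before Vmn2r18, Ppap2c after Vmn2r83 and Gm5146 after Vmn2r117 had 0% in all 4 lists, at 192 kb, 34.3 kb and 71.5 kb. Cd163, a scavenger receptor gene of macrophages 72.9 kb after Vmn2r27, and Clec4e, a C-type lectin gene 18.5 kb before Vmn2r19, were wholly in LADs in all 4 lists. Nox4, an NADPH oxidase gene 208 kb after Vmn2r79, had 0% in preadipocytes, 100% in adipocytes, 54.8% in Tmem120a shRNA cells and 74.3% in Tmem120a/b shRNA cells, although Vmn2r79 itself was whole in the first 3.

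Some Vmn2r genes are close in sequence to others of the family, so reads may not place in them uniquely. A GATC end was called unique when the 36 bases that start there occur once in the mm9 genome on either strand. The length of the reads is not given in the sources used here, and 36 was a choice. Of the GATC ends of a Vmn2r gene, a median of 58.3% were unique (range 0 to 97.3%), against a median of 95.1% over protein-coding genes with a GATC. The share was under 10% in 21 Vmn2r genes and 0 in 7. Of the 16 genes not whole in at least 1 list, the median was 64.8% (38.1% to 85.4%), and of the 109 whole in all 4 lists it was 58.1% (0 to 97.3%). All 21 genes under 10% were among those whole in every list, as were 87.2% of all Vmn2r genes. Most of the 21 lay in 2 clusters of chromosome 7, Vmn2r29 to Vmn2r36 and Vmn2r37 to Vmn2r52. Neighbours there share LADs, so the 21 are not independent cases. The density of GATC had medians of 2.53 per kb in Vmn2r genes and 2.41 per kb in all genes. For Vmn1r genes the median unique share was 50% and for Olfr genes 91.7%. Of these families, 83.7% and 82.9% of the genes lay wholly in LADs in all 4 lists. The part of uniquely placed reads in these results was not tested, since the lists hold no reads.

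**Figure D4:**
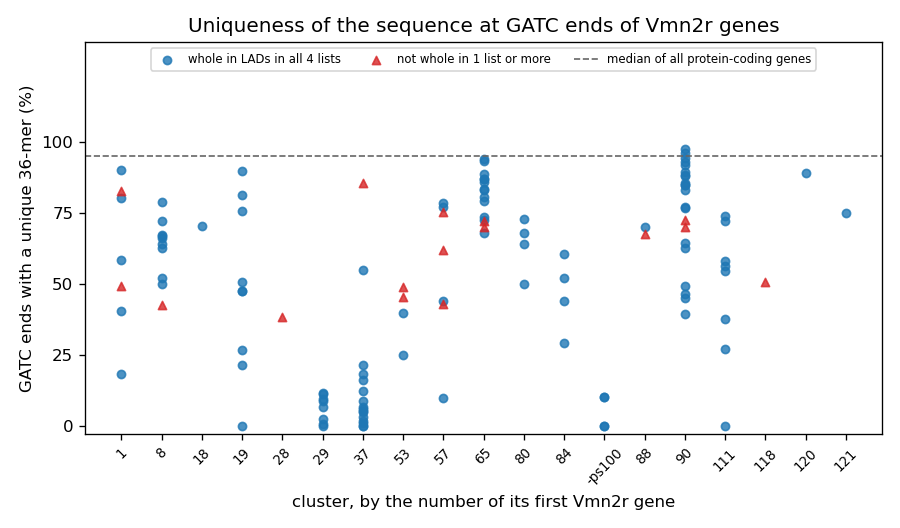
Share of GATC ends with a unique 36-mer (%) for each of the 125 Vmn2r genes, by cluster, with the median of all protein-coding genes (95.1%) as a dashed line. The 16 genes not whole in at least 1 list (triangles) lie between 38.1% and 85.4%. The genes under 10% are all circles, whole in all 4 lists, as are 109 of the 125 genes.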

How the data were processed

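LaminB1-DamID libraries were made from 3T3-L1 cells in 4 conditions, with 1 LaminB1-Dam and 1 Dam library in each. Reads were mapped with BWA to mm9, per the submitters' processing notes. Per the study's methods, the log2 ratio of LaminB1-Dam to Dam was taken for each DpnI fragment and LADs were called with DNAcopy 1.46.0. The authors deposited a LAD list per condition and 2 lists of differential regions, which hold positions alone, so depth and precision are unknown. Lists were assigned to conditions by the abbreviation in their names.

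Genes were taken from GENCODE vM1 on the NCBIM37 sequence (mm9), and starts were read as counting from 0. LAD borders lay within 4 bp of a GATC for 98.3%, 97.3%, 98.9% and 99.1% of borders in the preadipocyte, adipocyte, Tmem120a shRNA and Tmem120a/b shRNA lists. A gene met a LAD if at least 1 base was inside, and was whole if all bases were. Intervals were compared with numpy 2.4.6 in Python 3.11.15, tested on simulated intervals, plots were drawn with matplotlib 3.10.9 and promoters aligned with Biopython 1.88. With 1 list for each condition no test between conditions was made. Genes named were the first and last of each cluster, those meeting a differential region, those with a LAD in some lists only, those with the largest range, and the flanking genes, and further genes of known function and partial genes were added after their values were seen. The Vmn2r genes and the other lists were chosen with earlier results of these data known. Of the lists, that of Esp genes (exocrine gland peptides) matched 0 symbols, and Tfap2e was not matched. One gene of the lists is not reported here.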

Additional observations from a re-analysis of the deposited data

How the results depend on the processing

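Alternatives gave 105 values, of which 87 moved by less than the limits set for a count or proportion. Closing gaps under 50 kb gave 1 gene with a border inside in each of the 4 lists, 125 genes meeting a LAD in both shRNA lists, 124 genes with the same state in all lists (122 before), and 25 LADs meeting clusters in Tmem120a/b shRNA cells (47 before). Keeping LADs of at least 100 kb gave 1 gene with a border inside in preadipocytes and 1 in adipocytes, and 119 genes meeting a LAD in Tmem120a/b shRNA cells. Requiring the whole body gave 118 and 116 genes in the shRNA lists. Joining genes within 2 Mb gave 50 LADs meeting clusters in preadipocytes (32 before) and 55 in Tmem120a shRNA cells (33 before). Released regions by plain subtraction met 1 gene. Recruited regions covering at least 50% of the gene, or of at least 30 kb, met 1 gene. Alternatives chosen after seeing the data were closing gaps made of N, leaving runs of N out of spans, and leaving out the genes with Vmn2r-ps symbols or Vmn2r7, and none of their values is among those above. No paired analysis was possible because each condition has 1 pair of libraries, and no replicate could be left out. Most partial states thus rest on gaps under 50 kb, whose reads were not examined here.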

Other observations

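The annotation also holds 52 Vmn2r pseudogenes on 5 chromosomes. A LAD was met by 52 in preadipocytes, 52 in adipocytes, 51 in Tmem120a shRNA cells and 49 in Tmem120a/b shRNA cells. In all 4 lists 49 met a LAD and 44 lay wholly in LADs, where all protein-coding genes had 19.3% and 14.3%. Of the 52, 0 were without a LAD in all 4 lists. Most of them lie within or near the clusters described above, and Vmn2r-ps11 overlaps Vmn2r7. Their counts thus largely repeat the same LADs.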
